A study of Mus musculus with 18 samples.

Results

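The comparison set untreated liver of liver-specific Ftcd knockout (LKO) mice against untreated liver of wild-type (WT) littermates, 3 libraries each, which are 6 of the 18 libraries of the series. The mice were of the C57BL/6 strain, were kept on regular chow, received no carcinogen and were killed at 12 months of age; the setting was spontaneous liver cancer. The other 12 libraries came from mice injected intraperitoneally with diethylnitrosamine (DEN), a liver carcinogen, at 20 mg/kg on postnatal day 14 and sampled 12 months later. They were DEN LKO nontumour liver (3 libraries), DEN LKO tumour (3) and DEN WT nontumour liver (6), and they enter only where the untreated difference was set beside them. The labels name no Cre driver, floxed allele or sex, and do not say whether a library came from a single animal, so p-values measure the spread between these libraries. Levels are TPM, a length-scaled share of each library's transcripts, and the depth behind them is unknown. Of 58126 genes in the table, 24812 were above 0 in any of the 6 libraries and 10612 reached 1 TPM in at least 3 of them and were tested. Brd8, at 1.00 TPM in its third-highest library, lay just inside that limit, and Epn2, at 0.99 TPM, lay just outside.

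Ftcd encodes formimidoyltransferase cyclodeaminase, the liver enzyme that ends histidine breakdown by passing the formimino group of formiminoglutamate to tetrahydrofolate. Mouse liver is also among the tissues with the strongest sex differences in gene expression. Growth hormone reaches the liver in separated pulses in males and more continuously in females, its signal is carried by the transcription factor STAT5B, and many cytochrome P450, sulfotransferase and major urinary protein genes differ between the sexes under that control. CUX2, a homeobox factor of the female mouse liver, and HNF4A, a hepatocyte nuclear receptor, act on many of the same genes.

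Many of the genes that separated the LKO libraries most from the libraries labelled WT were of these families. Promoters of 5 genes from opposite sides of the comparison are shown, among them A1bg, which is of none of these families. The promoters are RefSeq sequences of GRCm38.p6, 250 bases before to 50 after the start of the gene, all on the minus strand and printed 5′ to 3′. Cyp3a41a (chr5:145720087-145720386), Cyp2c69 (chr19:39886720-39887019) and A1bg (chr15:60921221-60921520) belong to genes lower in LKO. Mup7 (chr4:60070426-60070725) and Mup21 (chr4:62150792-62151091) belong to genes higher in LKO. Capitals mark letters matching any of 4 searched motifs on either strand.
Cyp3a41a: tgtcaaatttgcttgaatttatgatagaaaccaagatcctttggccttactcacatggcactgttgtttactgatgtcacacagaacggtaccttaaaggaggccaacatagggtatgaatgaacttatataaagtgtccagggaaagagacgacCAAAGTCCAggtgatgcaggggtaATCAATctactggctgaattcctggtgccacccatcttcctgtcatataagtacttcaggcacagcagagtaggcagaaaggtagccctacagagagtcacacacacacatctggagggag
Cyp2c69: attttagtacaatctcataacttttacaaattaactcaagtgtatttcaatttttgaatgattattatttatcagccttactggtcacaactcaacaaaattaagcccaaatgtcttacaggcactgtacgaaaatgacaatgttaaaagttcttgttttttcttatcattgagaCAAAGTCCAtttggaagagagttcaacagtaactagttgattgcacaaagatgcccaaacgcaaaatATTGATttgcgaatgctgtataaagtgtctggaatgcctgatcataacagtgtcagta
A1bg: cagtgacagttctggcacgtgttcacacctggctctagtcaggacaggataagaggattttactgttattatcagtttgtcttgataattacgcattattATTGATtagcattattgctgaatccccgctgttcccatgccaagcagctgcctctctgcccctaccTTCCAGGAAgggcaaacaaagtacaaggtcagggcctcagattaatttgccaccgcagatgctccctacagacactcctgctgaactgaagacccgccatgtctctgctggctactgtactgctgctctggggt
Mup7: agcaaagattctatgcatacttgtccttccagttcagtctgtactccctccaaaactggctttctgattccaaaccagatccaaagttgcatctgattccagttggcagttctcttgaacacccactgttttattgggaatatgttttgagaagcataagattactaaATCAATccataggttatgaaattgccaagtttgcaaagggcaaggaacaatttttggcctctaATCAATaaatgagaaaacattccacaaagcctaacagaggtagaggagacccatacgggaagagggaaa
Mup21: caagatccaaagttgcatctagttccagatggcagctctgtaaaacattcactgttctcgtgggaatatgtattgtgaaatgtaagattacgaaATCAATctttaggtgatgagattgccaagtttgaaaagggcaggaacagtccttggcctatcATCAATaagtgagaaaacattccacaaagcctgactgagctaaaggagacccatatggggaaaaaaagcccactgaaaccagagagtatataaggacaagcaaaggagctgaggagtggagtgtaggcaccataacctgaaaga
The motifs were TTCNNNGAA for STAT5, CAAAGTCCA for HNF4A, ATTGAT or ATCGAT for HNF6 and CUX2, and TCACNCCAC for SREBP; no 2 matches overlapped in the promoters shown. RefSeq promoters were matched for 12 of the 15 named genes that were lower in LKO and for 7 of the 15 that were higher. CAAAGTCCA was found in 4 of these 12 promoters (Cyp3a16, Cyp3a41a, Cyp3a41b and Cyp2c69) and in 0 of the 7, beside 0.631% of the promoters of all tested genes. The HNF6 and CUX2 letters were found in 7 of the 12 and 2 of the 7, beside 5.39%, and the STAT5 letters in 3 of the 12 (A1bg, Hamp2 and Sult3a1) and 0 of the 7, beside 6.65%. The SREBP letters were found in 1 of the 12 (Cyp2a4) and 0 of the 7, beside 1.28%. The promoters are not independent: over their 300 bases Cyp3a41a matched Cyp3a41b at 97.3% of positions and Cyp3a44 at 92.3%. Cyp3a16 matched Cyp3a41a at 31%, a count that allows no shift. Its CAAAGTCCA and ATCAAT began at bases 152 and 176, against 156 and 180 in Cyp3a41a, with the same letters between them. The 4 promoters with CAAAGTCCA are therefore not 4 separate cases. A match is a description of letters and does not show that a factor binds there.

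Ftcd itself (chr10:76575648-76590338) was at 3.16, 1.75 and 2.29 TPM in the LKO libraries, against 74.9, 61.2 and 1.77 TPM in the libraries labelled WT. WT 1 and WT 2 were high, and the library labelled WT 3 lay inside the LKO range, so its Ftcd level goes against its label. With all 6 libraries the log2 difference was -2.81 (exact permutation test, 2-sided, p = 0.3, where 3 against 3 cannot go below 0.1). Across all genes limma gave Ftcd an adjusted p of 0.609, and 0.00149 without the library labelled WT 3. Among the DEN libraries labelled WT, replicates 1 and 2 were also low in Ftcd, at 2.36 and 2.50 TPM, and the other 4 were at 61.7 to 106 TPM.

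Sex-chromosome transcripts divided the groups completely. Xist, the RNA that silences an X chromosome in females, was at 0, 0 and 0.01 TPM in the LKO libraries, against 3.59, 12.4 and 19.5 TPM in the libraries labelled WT. The sum of 6 Y-linked genes was 17.8, 16.4 and 17.6 TPM in the LKO libraries, against 0, 0.05 and 0.06 TPM in the libraries labelled WT; Zfy1 and Usp9y of that list were at 0 in all 6. Xist was the single called gene of 4 tested in the list of X inactivation and escape. The Y-linked Ddx3y rose by 3.30 ± 0.34 (SE) and Eif2s3y by 2.68 ± 0.38 on the log2(TPM + 1) scale (limma adjusted p 0.000926 and 0.00638). All 3 LKO libraries thus carried Y-linked transcripts and all 3 libraries labelled WT carried Xist, so genotype and sex cannot be told apart in these 6 libraries, and every difference below is a difference between these groups of libraries. Below, WT stands for the libraries labelled WT, in the order WT 1, WT 2 and the library labelled WT 3.

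**Figure D1:**
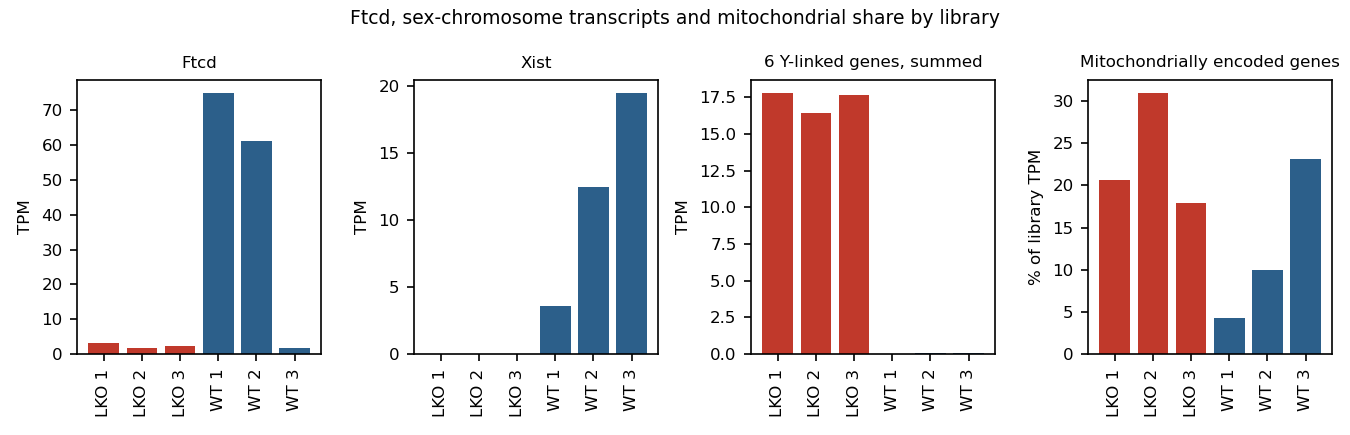
Ftcd, Xist and summed Y-linked TPM, and the share of TPM on mitochondrially encoded genes, in each untreated library (LKO red, WT blue). Ftcd is low in the 3 LKO libraries and in the library labelled WT 3, at 1.77 TPM, while Xist and the Y-linked sum do not overlap between the groups.

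Mitochondrially encoded transcripts took 20.6, 30.9 and 17.9% of TPM in the LKO libraries, against 4.24, 10.0 and 23.2% in the libraries labelled WT. Their means were 23.2 ± 6.86% in LKO and 12.5 ± 9.69% in WT (SD, n = 3 each; exact permutation test, p = 0.3), and the groups overlapped through the library labelled WT 3. TPM is a share, so nuclear genes take less of a library as this share grows. The median log2 difference of all tested genes was -0.39, and 80.1% of them were below 0; median-ratio scaling brought that median to 0.0089. Medians of gene lists are therefore also given relative to the median of all tested genes. Library pairs correlated at r = 0.852 to 0.933 within LKO, 0.847 to 0.943 within WT and 0.759 to 0.915 between the groups over log2(TPM + 1), and no pair of libraries was identical.

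In the comparison, 109 of 10612 genes passed an adjusted p under 0.05 (limma, Benjamini-Hochberg over all tested genes), a background of 1.03%. Higher in LKO were 50 genes (0.471%) and lower were 59 (0.556%), and 673 genes had an unadjusted p under 0.05. The LKO libraries did not overlap with those labelled WT in 1180 genes (11.1%), all 109 called genes among them. Without the library labelled WT 3, 115 genes passed (1.08%), 45 higher and 70 lower, and 38 of the 50 and 53 of the 59 were among them. In that fit, which did not use it, the library labelled WT 3 lay nearer to the WT mean than to the LKO mean in 37 of the 45 higher and 62 of the 70 lower genes. Its levels of these genes therefore lay with the libraries labelled WT in most cases, while its Ftcd did not. The library labelled WT 3 carried Xist like the other libraries labelled WT, and the LKO libraries carried Y-linked transcripts. Its nearness to the WT mean thus cannot tell genotype from sex and does not bear on its genotype label. Of the 50, 33 reached 1 TPM in at least 3 libraries only through LKO, and of the 59, 35 did so only through WT, so such genes could be tested only because they differed.

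Genes higher in LKO were led by major urinary proteins and by P450 and steroid enzymes that are known from male mouse liver. The 3 largest rises were Mup20, Cyp4a12a and Mup21, each above 6 on the log2 scale. The male-biased list held 16 of the 50 rises, out of 33 tested members, against 0 falls; 31 of its 33 tested members were above 0 and the median was 2.38, against -0.39 over all tested genes. Of these 33 members 7 reached the limit only through LKO. The summed level of the list was 53611, 38826 and 56184 TPM in the LKO libraries, against 13700, 8942 and 2392 TPM in the libraries labelled WT, so it did not overlap between the groups.

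Mup20 (chr4:62050234-62054158), which encodes darcin, a pheromone protein of male urine, was at 1799, 3299 and 4548 TPM in LKO, against 41.2, 19.5 and 11.8 TPM in WT. The log2 change was 7.07 ± 0.59 (SE) with an adjusted p of 0.000247. Mup7 was at 12730, 8963 and 14980 TPM in LKO, against 467, 502 and 64.3 TPM in WT, and was among the most abundant transcripts of the LKO libraries. Mup21 was at 241, 77.7 and 256 TPM in LKO, against 5.86, 0.13 and 0 TPM in WT. In all 3 genes each LKO library was above every library labelled WT, a condition of their choice. Mup12 and Mup1 rose by 4.50 ± 0.73 and 4.25 ± 0.82 (adjusted p 0.0139 and 0.0371). Mup12 was not called without LKO 1 or without LKO 3, and Mup1 was not called without any of the 3 LKO libraries in turn. Mup3 and Mup11, the most abundant members that were not called, were at 3851 to 11370 and 7570 to 13510 TPM in LKO, against 739 to 3097 and 342 to 4533 TPM in WT (adjusted p 0.288 and 0.275). Mup genes and pseudogenes are near copies, so the split of reads between them, including the pseudogenes Mup-ps4, Mup-ps5 and Mup-ps11, is uncertain.

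Among the P450 enzymes, Cyp4a12a (chr4:115299046-115332815), a fatty acid hydroxylase of male mouse liver and kidney, was at 148, 106 and 161 TPM in LKO, against 0.31, 0.05 and 0.36 TPM in WT. It rose by 6.80 ± 0.42 (adjusted p 4.3e-05), and its neighbour Cyp4a12b was at 17.3 to 40.7 TPM in LKO and listed at 0 in all 3 libraries labelled WT. Cyp2d9, the testosterone 16-alpha-hydroxylase of male mice, was at 859, 489 and 706 TPM in LKO, against 10.3, 9.85 and 7.41 TPM in WT. Its rise was 6.05 ± 0.46 (adjusted p 0.000238). Hsd3b5, a male-specific steroid reductase, was at 51.5, 30.8 and 47.5 TPM in LKO, against 0.11, 0.05 and 0.39 TPM in WT, a rise of 5.20 ± 0.41 (adjusted p 0.000246). For each of these enzymes the lowest LKO library stood far above the highest library labelled WT.

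Slco1a1, an organic anion uptake transporter, was at 21.1, 15.3 and 35.05 TPM in LKO, against 0.11, 0.09 and 0.01 TPM in WT (rise of 4.46 ± 0.42, adjusted p 0.000474). It was the single called gene of the 16 tested in the bile and anion transport list. Selenbp2, a selenium-binding protein, was at 169, 226 and 48.8 TPM in LKO, against 8.06, 7.64 and 3.65 TPM in WT (4.12 ± 0.62, adjusted p 0.00907). Elovl3, which elongates long saturated fatty acids, and C6, a protein of the terminal complement complex, each rose by 3.38 (adjusted p 0.00853 and 0.00743). Cfd, complement factor D, which is made in fat tissue as adipsin, was at 23.1, 4.50 and 70.0 TPM in LKO, against 0.08, 0 and 0.11 TPM in WT. Its rise of 4.31 ± 0.76 (adjusted p 0.0243) came with an LKO spread as large as the LKO mean, 32.5 ± 33.8 TPM (SD, n = 3), and was not called without LKO 1.

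Genes lower in LKO were led by P450 and sulfotransferase genes that are known from female mouse liver, several of them near 0 in every LKO library. The female-biased list held 30 of the 59 falls, out of 40 tested members, of which 39 were below 0; the median was -4.04, against -0.39 over all tested genes. Of these 40 members 22 reached the limit only through WT. The summed level of the list was 121, 69.8 and 629 TPM in the LKO libraries, against 14103, 14300 and 19166 TPM in the libraries labelled WT. Cib3 was the exception that rose, at 1.81, 4.24 and 4.72 TPM in LKO, against 0, 0.21 and 0.10 TPM in WT (2.00 ± 0.36, adjusted p 0.0264, and 0.0823 without the library labelled WT 3).

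Cyp3a41a (chr5:145694049-145720136), whose promoter is printed above, was at 0, 0 and 0.17 TPM in LKO, against 2938, 1794 and 1505 TPM in WT. It fell by 10.89 ± 0.46 on the log2(TPM + 1) scale (adjusted p 2.79e-06), the largest change among the tested genes. Cyp3a41b, Cyp3a44 and Cyp3a16 fell too, and each was at or below 0.73 TPM in every LKO library, against 20.4 to 550 TPM in WT; these copies may share reads. Cyp2a4 (chr7:26307169-26315088), a steroid 15-alpha-hydroxylase, was at 0.93, 0.17 and 1.66 TPM in LKO, against 992, 681 and 517 TPM in WT (it fell by 8.60 ± 0.50, adjusted p 3.4e-05). Cyp2c69, Cyp2b13 and Cyp2b9 fell by 7.69 ± 0.69, 6.13 ± 0.52 and 5.51 ± 0.76. The LKO and WT libraries did not overlap in any of these P450 genes, a condition of their choice.

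A1bg (chr15:60896859-60923012), a secreted plasma glycoprotein, was at 0.04, 0.44 and 0.19 TPM in LKO, against 3025, 494 and 175 TPM in WT. It fell by 9.05 ± 0.86 (adjusted p 0.000474), with a wide spread among the libraries labelled WT. The hydroxysteroid sulfotransferase Sult2a1 was at 0, 0 and 0.11 TPM in LKO, against 779, 415 and 98.0 TPM in WT (it fell by 8.26 ± 0.68, adjusted p 0.000247). Sult2a4 was listed at 0 in all 3 LKO libraries and was at 290, 277 and 69.3 TPM in WT. In A1bg, Sult2a1 and Sult2a4 the library labelled WT 3 was the lowest of the WT libraries and still lay far above every LKO library.

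Hamp2, a relative of the iron hormone hepcidin, was at 53, 15.2 and 515 TPM in LKO, against 1626, 8668 and 15610 TPM in WT. Its fall of 6.30 ± 1.18 (adjusted p 0.0336) was the least stable of the 30 largest changes: it was not called without LKO 1, LKO 2, WT 2 or the library labelled WT 3, where the adjusted p was 0.0527. Hamp, which encodes hepcidin itself, was at 1769 to 8731 TPM in LKO, against 10230 to 26960 TPM in WT (log2 difference -2.33, adjusted p 0.325). Of the 30 genes with the largest changes, 29 were also called without the library labelled WT 3, and 26 in every fit that left out 1 library. Of the same 30, 19 reached 1 TPM in at least 3 libraries only in their higher group.

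**Figure D2:**
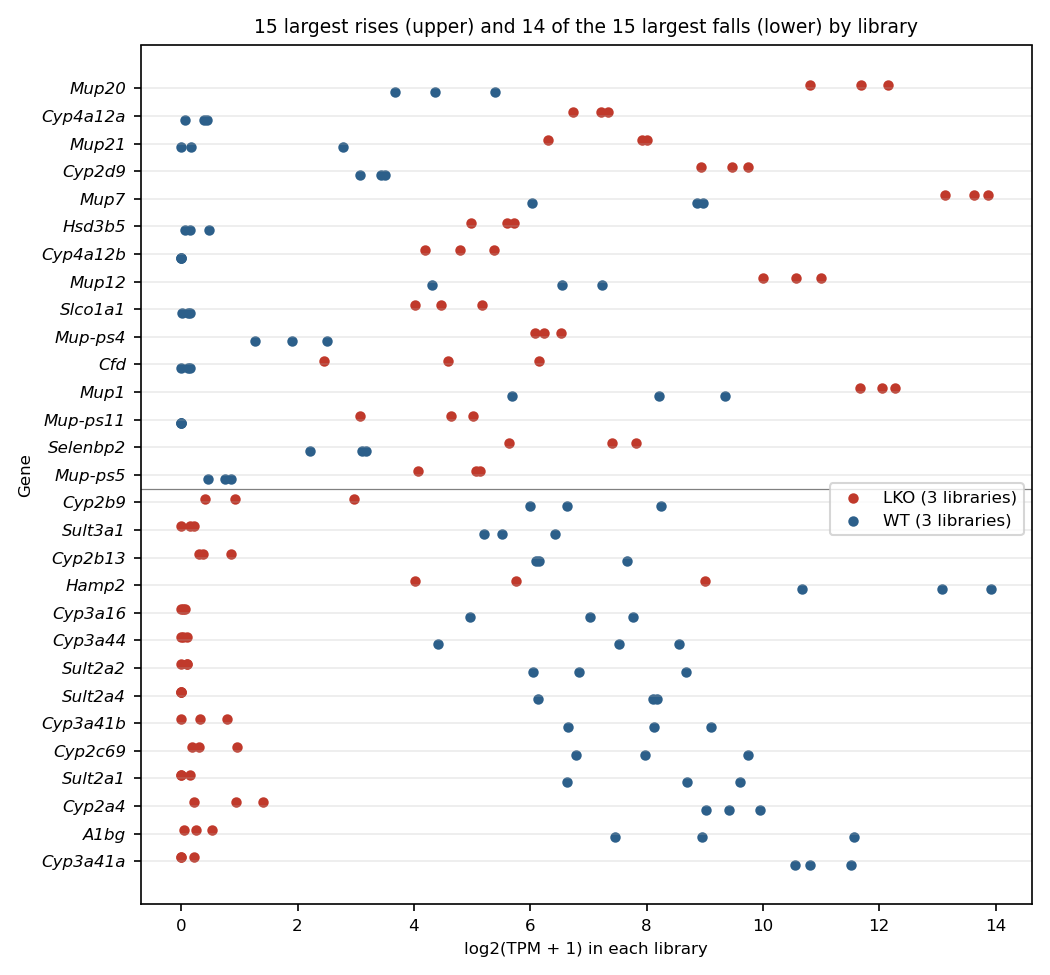
The 15 largest rises (above the line) and 14 of the 15 largest falls (below it), as log2(TPM + 1) in each untreated library (LKO red, WT blue). The groups do not overlap in any of the 29 genes shown, a condition of their choice, and the LKO points of most fallen genes sit close to 0.

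Regulators and steroid, peroxisomal and transport genes were among the smaller falls. Cux2, the female-liver factor named above, was at 0.02, 0.07 and 0.01 TPM in LKO, against 8.19, 7.17 and 6.63 TPM in WT (it fell by 3.01 ± 0.32, adjusted p 0.00108). Prlr, the prolactin receptor, fell by 3.44 ± 0.55 (adjusted p 0.0124), at 4.0 to 14.0 TPM in LKO and 69.8 to 156 TPM in WT. Cyp17a1, which makes androgen precursors, was at 1.31, 1.34 and 7.63 TPM in LKO, against 184, 104 and 137 TPM in WT (it fell by 5.27 ± 0.58, adjusted p 0.00122). Acot3, a peroxisomal acyl-CoA thioesterase, and Hao2, a peroxisomal hydroxyacid oxidase, fell by 4.64 ± 0.66 and 4.01 ± 0.37. Eci3, an enoyl-CoA isomerase outside the sex lists, was listed at 0 in all 3 LKO libraries and was at 25.9, 13.0 and 12.7 TPM in WT (adjusted p 0.000626).

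The growth hormone list itself had 0 called members of 12 tested, and all 12 were below 0, 10 of them below the median of all tested genes. Igf1, the growth factor the liver releases under growth hormone, was at 538 to 697 TPM in LKO, against 824 to 1320 TPM in WT (log2 difference -0.87 ± 0.47, adjusted p 0.686). Socs2 and Cish, feedback inhibitors induced by STAT5, were at 0.85 to 3.26 and 0.23 to 1.89 TPM in LKO, against 5.64 to 12.7 and 3.58 to 5.06 TPM in WT (adjusted p 0.266 and 0.211). Esr1, the oestrogen receptor, was at 0.42, 0.64 and 1.32 TPM in LKO, against 6.39, 5.17 and 2.80 TPM in WT (adjusted p 0.121). In this list 6 of 12 members did not overlap between the groups, all lower in LKO, beside 9.04% of all tested genes.

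Called genes were often neighbours. Runs were formed of called genes with gaps of at most 1000000 bases from one to the next. Each interval ends at its outermost called genes, which raises the share called inside it, and 1.03% of all tested genes were called. On chr4:60066469-62231047 lay 10 genes higher in LKO, of 37 tested there. They were 9 Mup genes or pseudogenes and the zinc finger gene Zfp37. On chromosome 7, 6 falls of 8 tested genes lay at chr7:25897620-26939384, among them Cyp2b13, Cyp2b9, Cyp2b10, Cyp2a4 and Cyp2a22. At chr7:13623967-14724904 lay 5 falls, all Sult2a genes, and 1 rise, of 9 tested genes. The Cyp3a genes at chr5:145436309-145805874 gave 4 falls of 6 tested, and the Cyp2c genes at chr19:39510862-39886799 gave 3 of 5. Genes of such arrays share sequence as well as position, so they are not independent changes.

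Outside the sex-biased, X-linked and Y-linked lists lay 31 of the 50 rises and 28 of the 59 falls. Lying outside these lists does not show that a gene is free of sex bias. The 31 include Mup-ps4, Mup-ps5 and Mup-ps11, which lie among the Mup genes of chromosome 4. The genes described next were chosen after their values were seen. Alas2, the red-cell enzyme that begins haem synthesis, was at 164, 94.9 and 124 TPM in LKO, against 11.4, 13.4 and 11.8 TPM in WT (rise of 3.26 ± 0.44, adjusted p 0.0052). It was the single called gene of 6 tested in the red-cell list. The globin genes were not called: Hba-a1 was at 623, 263 and 552 TPM in LKO, against 297, 270 and 258 TPM in WT (adjusted p 0.686), and Hba-a2 overlapped as well. The summed red-cell list was at 784 to 1894 TPM in LKO, against 709 to 1601 TPM in WT, with Ermap at 0 in all 6 libraries. Zinc finger genes Zfp991 and Zfp993 rose by 2.48 ± 0.40 and 2.53 ± 0.41, and Nat8f5, of the N-acetyltransferase 8 family, rose by 3.64 ± 0.50. Among the falls were St3gal6, a sialyltransferase, and Nt5e, the enzyme that makes adenosine outside cells,, which fell by 2.45 ± 0.43 and 2.29 ± 0.36. The antibody gene Ighg2b was at 1.51, 1.15 and 2.9 TPM in LKO, against 11.8, 14.9 and 10.3 TPM in WT (adjusted p 0.0311, and 0.0626 without the library labelled WT 3).

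Histidine and folate genes, the setting of the deleted enzyme, gave no calls. Of the histidine list, which holds Ftcd itself, 5 were tested and 0 were called. All 5 were below 0, beside 80.1% of all tested genes, and 4 of them were below the median of all genes. Hal, which starts histidine breakdown, was at 64.5, 46.1 and 119 TPM in LKO, against 103.3, 110 and 148 TPM in WT, so the groups overlapped. Uroc1, the next enzyme, was at 34.4, 24.1 and 95.3 TPM in LKO, against 195, 87.1 and 94.1 TPM in WT (log2 difference -1.42 ± 0.60, adjusted p 0.686). Amdhd1, which follows it, was at 23.6 to 43.3 TPM in LKO, against 39.3 to 79.5 TPM in WT. In the folate list 22 were tested and 0 called; 4 of the 22 did not overlap between the groups, all lower in LKO, beside 9.04% of all tested genes, and the relative median was -0.34. Aldh1l1, which removes formyl groups from tetrahydrofolate, was at 150, 65.4 and 208 TPM in LKO, against 550, 239 and 220 TPM in WT. The methionine cycle list (18 tested), serine and glycine list (8) and purine synthesis list (14) also had 0 called, with relative medians of -0.33, 0.06 and -0.33.

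Lipid lists had no called members, and LKO 3 stood apart within them. The cholesterol synthesis list had 0 called of 26 tested, and the fatty acid synthesis list 0 of 20; every tested member of both was below 0, 24 of the 26 and 18 of the 20 were below the median of all tested genes, and the relative medians were -0.70 and -0.78. Fasn, the fatty acid synthase, was at 28.3, 8.28 and 373 TPM in LKO, against 513, 65.1 and 161 TPM in WT, so LKO 3 lay inside the WT range while LKO 1 and LKO 2 lay below it. Scd1, which desaturates fatty acids, was at 131, 320 and 2792 TPM in LKO, against 1184, 467 and 2364 TPM in WT. Srebf2, a regulator of cholesterol synthesis, was at 6.67, 6.73 and 14.6 TPM in LKO, against 22.7, 11.6 and 17.8 TPM in WT. The fatty acid oxidation list had 0 called of 26; its largest difference was that of Cyp4a14, a fatty acid hydroxylase, at 2.50, 0.16 and 18.4 TPM in LKO, against 317, 87.0 and 47.8 TPM in WT (adjusted p 0.0607, and 0.0289 without the library labelled WT 3).

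In the fat droplet list, 0 of 16 tested genes were called, but 5 had every LKO library above every library labelled WT, beside 2.08% of all tested genes. They were Cidea, Cidec, Fitm1, Plin4 and Fabp4. Of the 16 tested genes 2 reached 1 TPM in at least 3 libraries only through LKO, Cidea among them. Those 2 were tested only because they differed and could not overlap. Cidea, a droplet protein of steatotic liver, was at 1.99, 1.23 and 81.2 TPM in LKO and listed at 0 in WT (adjusted p 0.573). Cidec, which promotes droplet growth, was at 7.15, 5.07 and 67.3 TPM in LKO, against 2.92, 3.73 and 2.95 TPM in WT (adjusted p 0.686). In Cidea and Cidec the LKO 3 level was many times that of the other LKO libraries. Fitm1, an endoplasmic reticulum protein of droplet formation, was more even, at 163, 72.9 and 214 TPM in LKO, against 38.7, 30.4 and 31.7 TPM in WT (log2 difference 2.00 ± 0.52, adjusted p 0.178). G0s2, an inhibitor of fat breakdown, was the 1 member lower in every LKO library, at 61.6, 28.0 and 128 TPM, against 337, 194 and 159 TPM in WT. Pparg, a regulator of fat storage, was at 3.76, 1.39 and 8.34 TPM in LKO, against 6.85, 2.93 and 4.69 TPM in WT.

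**Figure D3:**
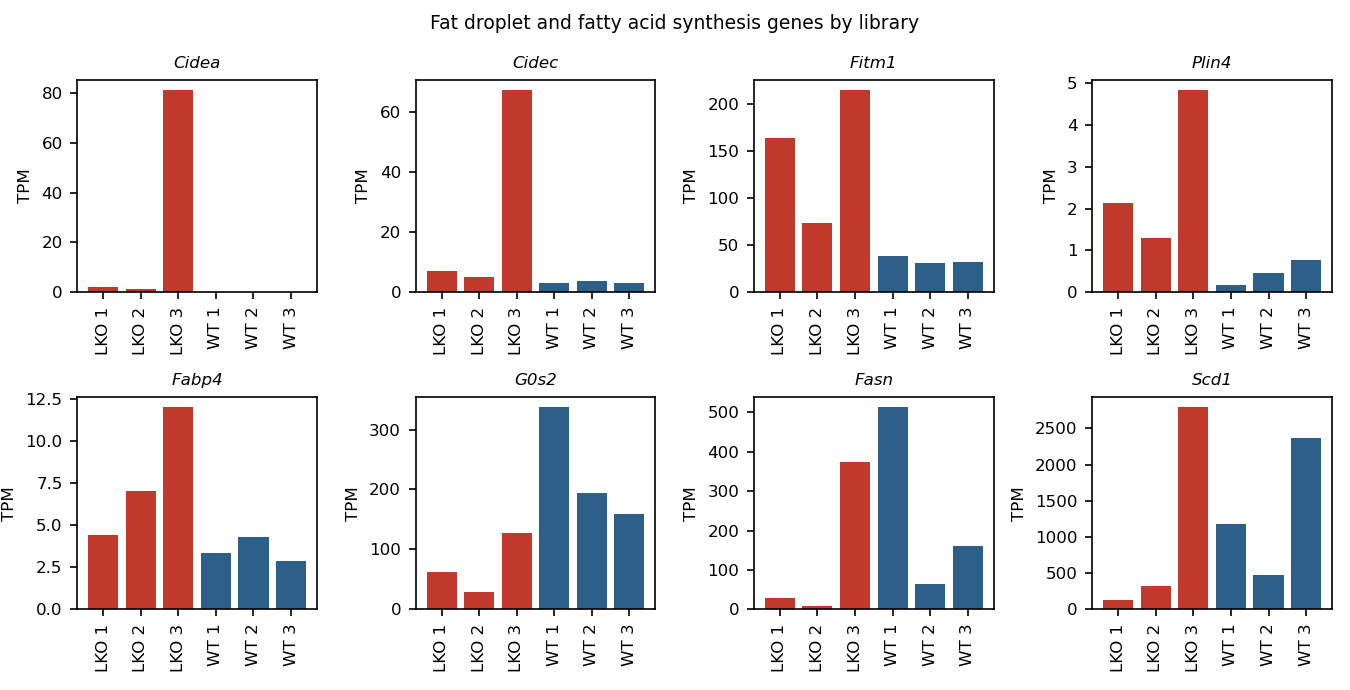
TPM of 6 fat droplet genes and of Fasn and Scd1 in each untreated library (LKO red, WT blue). Cidea, Cidec, Fitm1, Plin4 and Fabp4 are higher in every LKO library, with Cidea and Cidec at 81.2 and 67.3 TPM in LKO 3, and none of the 8 genes was called.

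Hepatocyte and zonation genes were expressed in all 6 libraries, as the tissue label says, and none was called. Alb, the serum albumin gene, was at 8271, 7025 and 19139 TPM in LKO, against 35846, 24848 and 21450 TPM in WT (log2 difference -1.37, adjusted p 0.667). The summed hepatocyte list was at 40929 to 89311 TPM in LKO, against 94296 to 137050 TPM in WT, without overlap; the mitochondrial shares of the same libraries are given above. Pericentral markers had 0 called of 17; Cyp2e1, an alcohol-oxidising P450, was at 2330, 354 and 1379 TPM in LKO, against 5917, 3234 and 684 TPM in WT. Glul, glutamine synthetase of the cells around central veins, was at 263, 120 and 189 TPM in LKO, against 450, 298 and 154 TPM in WT. Periportal urea-cycle genes had 0 called of 14, and Ass1, argininosuccinate synthase, was at 592, 289 and 1154 TPM in LKO, against 2886, 1355 and 1417 TPM in WT. In bulk tissue, fewer cells of a type and less RNA per cell cannot be told apart.

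Of the marker lists of other cells, the red-cell list had 1 called member, Alas2, and the others had none. Macrophage markers had 0 called of 14 tested, all below the median of all genes, and summed to 75.2 to 137 TPM in LKO, against 144 to 420 TPM in WT. Clec4f, which marks Kupffer cells, was at 36.8, 17.2 and 20.5 TPM in LKO, against 82.7, 76.3 and 36.8 TPM in WT, and C1qb, a complement protein of macrophages, was at 8.30 to 14.1 TPM in LKO, against 24.7 to 56.2 TPM in WT. B-cell and plasma-cell markers summed to 34.0 to 142 TPM in LKO, against 196 to 382 TPM in WT, with Tnfrsf17 at 0 in all 6; Igkc, the kappa light chain, was at 25.7 to 62.0 TPM in LKO, against 104 to 295 TPM in WT (adjusted p 0.263). Ighg2b and Igkv3-4, the called antibody genes, were lower in LKO, as that sum was, and its part in their fall was not tested. Within WT, Igkv3-4 was highest in WT 1, at 16.3 TPM, where the sum was lowest, at 196 TPM. Class II antigen presentation genes summed to 39.4 to 81.3 TPM in LKO, against 66.2 to 238 TPM in WT. Stellate and matrix markers summed to 99.3 to 159 TPM in LKO, against 205 to 463 TPM in WT. Much of that sum was 1 gene, Ecm1, at 128, 84.9 and 65.25 TPM in LKO, against 100, 391 and 180 TPM in WT. Of the 11 stellate and matrix members tested, 5 were above 0 and 6 below, and the relative median was 0.35. Endothelial markers summed to 77.3 to 109 TPM in LKO, against 101 to 217 TPM in WT. T and NK cell markers summed to 10.9 to 14.7 TPM in LKO, against 11.5 to 36.0 TPM in WT, and neutrophil markers to 4.27 to 11.0 TPM in LKO, against 4.36 to 12.7 TPM in WT. The summed bile duct list overlapped, at 1065 to 1758 TPM in LKO, against 948 to 4385 TPM in WT. Most of that sum was 1 gene, Ambp, at 1509, 898.5 and 966 TPM in LKO, against 4048, 1931 and 733 TPM in WT. The sum therefore says little of the other bile duct markers. Of 15 markers of pancreas, muscle, fat, kidney and gut, 6 were at 0 in all libraries and the sum was 34.5 to 76.7 TPM in LKO, against 30.9 to 52.6 TPM in WT.

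Of the 40 gene lists, 6 had at least 1 called member and 34 had none. The lists with none included heat shock genes (relative median -0.65), interferon genes (-0.57), targets of NRF2 (-0.20), ATF4 and endoplasmic reticulum stress genes (-0.05), clock genes (-0.12), acute-phase genes (0.13), targets of p53 (0.27), bile acid synthesis (-0.40) and gluconeogenesis (-0.16). Cell division and fetal liver lists had 2 of 20 and 4 of 15 members tested, the others lying below the limit. Beside the sex lists, the largest positive relative median was that of mitochondrially encoded genes, at 1.48, all 12 tested members above 0 and 0 called. The markers of pancreas, muscle, fat, kidney and gut (2 tested) followed at 0.83, and the red-cell list (6 tested) at 0.68.

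**Figure D4:**
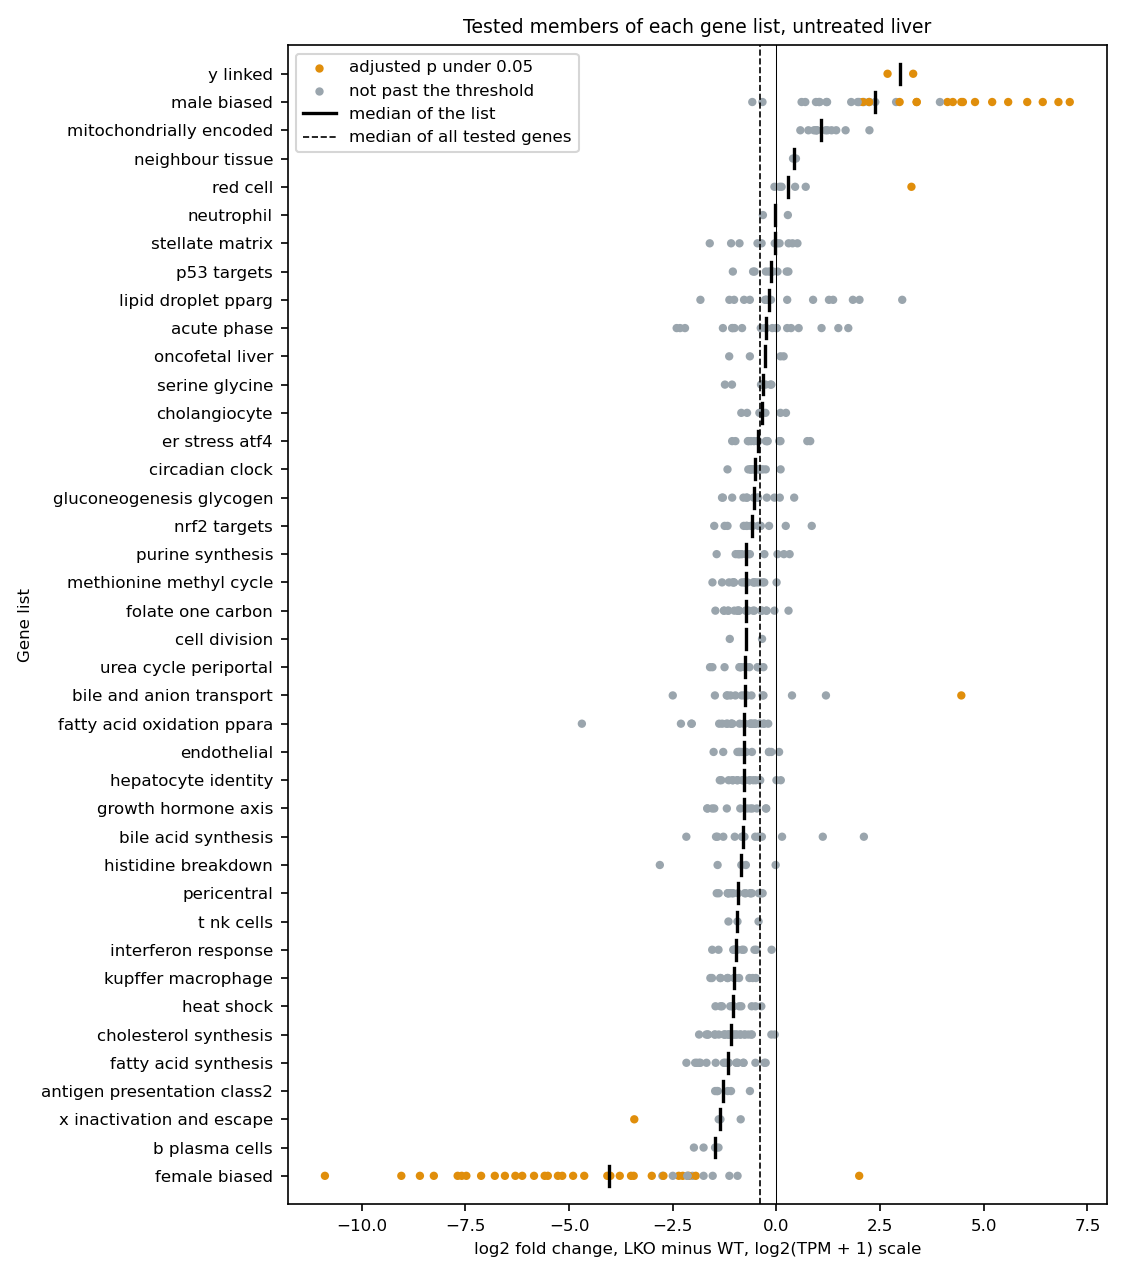
Log2 fold change (LKO minus WT, log2(TPM + 1) scale) of each tested member of 40 gene lists, with genes called in orange, each list's median as a bar and the median of all tested genes, -0.39, as a dashed line. The male-biased and female-biased lists lie on opposite sides, with medians of 2.38 and -4.04, and the metabolic and cell-type lists lie between them with 2 called members in all, Slco1a1 and Alas2, the list of B and plasma cells at -1.09 relative to the dashed line.

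DEN LKO nontumour minus DEN WT nontumour liver is the comparison most alike, and it called 3 genes (0.0283%), A1bg, Sult2a1 and Sult2a2, all lower in DEN LKO and all among the 59 falls of untreated liver. Of the 50 untreated rises 43 had the same sign there, and of the 59 falls 56. The share of all tested genes with the same sign was not computed, and 80.1% of them were below 0 in untreated liver. DEN LKO nontumour replicates 2 and 3 carried Y-linked transcripts and all DEN WT libraries carried Xist. The shared signs therefore cannot tell genotype from sex. The difference between the untreated and the DEN difference was called in 0 genes (limma over 18 libraries), with 239 genes at an unadjusted p under 0.05. Closest to the threshold were Mup-ps11, at 4.24 in untreated and 0.30 in DEN liver (adjusted p of the difference 0.0639), and Cyp2a4, at -8.60 in untreated and -0.59 in DEN liver (0.0663). Cyp2a4 was at 168, 743 and 346 TPM in DEN LKO nontumour liver, against 128 to 990 TPM in the 6 DEN WT libraries, so the groups overlapped with DEN.

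The DEN LKO libraries were not alike in sex-chromosome transcripts. Replicate 1 of the nontumour and of the tumour group carried Xist (55.1 and 35.4 TPM), and replicates 2 and 3 of both carried Y-linked transcripts (4.95 to 22.3 TPM); all 6 DEN WT libraries carried Xist. Cyp3a41a was at 820 TPM in the Xist-carrying DEN LKO nontumour library and at 1.58 and 2.93 TPM in those with Y-linked transcripts, against 259 to 2023 TPM in DEN WT. A1bg was at 24.6 TPM in that Xist-carrying DEN LKO nontumour library and at 0.24 and 0.44 TPM in the others, against 81.1 to 853 TPM in DEN WT. For Sult2a1 the same libraries had 22.5 TPM, and 0.40 and 0.67 TPM, against 58.0 to 570 TPM in DEN WT. Mup20 was at 72.8 TPM in the Xist-carrying library and at 10380 and 420 TPM in the others, against 10.8 to 295 TPM in DEN WT. With Xist present in DEN LKO and DEN WT alike, Cyp3a41a and Mup20 of that single DEN LKO nontumour library lay inside the DEN WT range, while A1bg and Sult2a1 lay below it. Its mitochondrial share was 36.9%. DEN WT replicate 1, at 38.8%, was the lowest DEN WT library for both A1bg and Sult2a1, at 81.1 and 58.0 TPM. Both genes were called in the DEN comparison, which used the same library. The cause of their low level in it was not tested.

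Over all called genes, DEN LKO nontumour replicate 2 lay nearer to the untreated LKO mean in 39 of the 50 rises and 46 of the 59 falls, and replicate 3 in 18 and 39. The Xist-carrying replicate 1 did so in 8 of the 50 and 24 of the 59. The DEN WT libraries lay nearer to the untreated LKO mean in 2 to 7 of the 50 rises and 1 to 14 of the 59 falls.

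**Figure D5:**
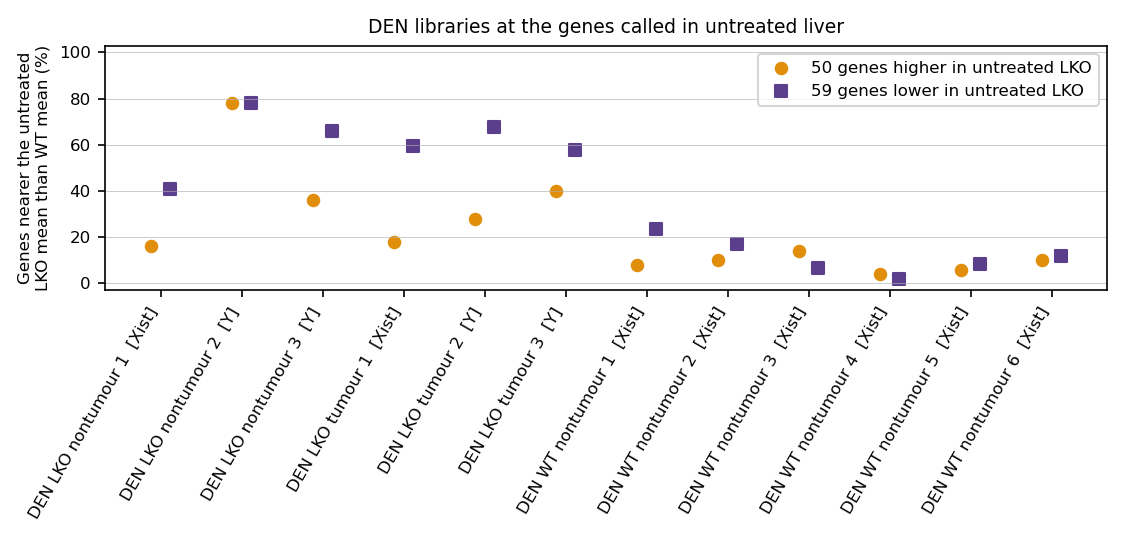
Percent of the 50 genes higher and the 59 genes lower in untreated LKO at which each DEN library lay nearer to the untreated LKO mean than to the untreated WT mean, with Xist or Y marking the sex-chromosome transcripts found. DEN LKO nontumour 2, with Y-linked transcripts, is nearest to untreated LKO (39 of 50 and 46 of 59 genes), and the DEN WT libraries are lowest.

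Because the DEN LKO groups hold libraries of both kinds, a fit of all 18 libraries could carry a term for Xist or Y-linked transcripts, although it rests on 2 Xist-carrying DEN LKO libraries. These are the nontumour and the tumour library numbered 1, and the labels do not say whether they came from the same animal, which the fit does not model. Both also had the highest mitochondrial share of their group, 36.9% and 31.4%. Within DEN LKO the term therefore cannot be told apart from that share. With that term 28 genes were called (0.264%), 8 higher and 20 lower, and 12 of them were among the 109, 6 higher and 6 lower. The median log2 difference of all tested genes was -1.09 in that fit, against -0.39 without the term. Cyp2a4 fell by 11.61 ± 1.15 in that fit (adjusted p 0.000183) and Cyp17a1 by 6.14 ± 0.88 (0.00528). Without the term Cyp2a4 fell by 8.60. In DEN LKO nontumour liver it was at 168 TPM in the Xist-carrying library and at 743 and 346 TPM in the others. The term thus enlarged its fall, and a call in this fit does not show a difference free of sex. Slco1a1 rose by 4.6 ± 0.88 (0.0392) and Aatk, a neuronal kinase, by 2.83 ± 0.38 (0.00447). Of the 30 genes with the largest changes, 3 were called with the term, which were Cyp2a4, Slco1a1 and Mup-ps11. Cyp3a41a had a difference of -4.03 ± 1.54 (adjusted p 0.176), A1bg of -6.18 ± 1.40 (0.0832), Cyp4a12a of 5.31 ± 1.11 (0.0548) and Mup20 of 1.57 ± 1.54 (0.431), none of them called.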

How the data were processed

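Per the labels' protocols, frozen liver gave total RNA by TRIzol extraction, and a TruSeq kit made the sequencing libraries. The authors deposited TPM per gene; the submitters' processing notes name fastp, HISAT, RSEM and the mm10 genome, with versions and settings not given in the sources used here. TPM holds no counts, so depth is unknown, and no interval from counting was computed. The table also held the authors' group means, which were not used and differed from the library means by at most 3.3e-05 TPM. Of the 58126 identifiers 55227 were in GENCODE M21, the source of coordinates.

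The scale was log2(TPM + 1), which understates changes of low genes. Genes reaching 1 TPM in 3 or more of the 6 untreated libraries were fitted with limma 3.58.1 in R 4.3.3, with a trend in the variance, 4 residual degrees of freedom and a 2-sided test per gene; a gene was called at a Benjamini-Hochberg adjusted p under 0.05. The DEN comparisons used all 18 libraries (13 residual degrees of freedom). Single values had exact permutation tests. Other steps used matplotlib 3.10.9, scipy 1.17.1, pandas 2.3.3, numpy 2.4.6 and Python 3.11.15. On simulated data for untreated LKO minus WT, 26% of 100 genes changed by 2 (log2) and 76% of 100 changed by 4 were called. There were 3 false calls among the unchanged genes of the 10612 in the fit.

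Named genes were the 15 largest rises and 15 largest falls among called genes averaging at least 5 TPM in the higher group, with no overlap between the groups and a regular symbol, together with 13 further genes and the called and 3 most abundant members of each list; others are said to be chosen after their values were seen, or stand as examples of a list, and 1 of the 15 falls is not reported here. The comparison, the 40 lists (686 entries, 684 matched) and the rule were chosen with earlier results of these data known. Likeness to Ftcd across libraries is not given, since its values fall into separate clusters. Alternatives changed the pseudocount, filter, scaling, covariates, weights, block and libraries used.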

Additional observations from a re-analysis of the deposited data

Results flagged for a closer look

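Single libraries stood far from the rest of their group in 6 of 44 groups of values examined, all in DEN WT nontumour liver (n = 6), the only group large enough; chance gives about 1 in 20. Replicate 4 had Mup20 at 294.9 TPM, with the next library at 97.5 TPM, and Mup-ps4 at 8.17 TPM, with the next at 1.30 TPM. Replicate 5 had Hsd3b5 at 1.42 TPM, next to 0.38 TPM, and Cyp4a12a at 1.75 TPM, next to 0.66 TPM. These levels of replicates 4 and 5 were below every untreated LKO library. Replicate 1 had Xist at 48.77 TPM, next to 14.2 TPM, and a mitochondrial share of 38.82%, next to 9.82%, and it was also among the 2 DEN WT libraries with low Ftcd.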

How the results depend on the processing

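The 109 called genes were 98 with a pseudocount of 0.1, 100 with median-ratio scaling, 98 with quantile normalization, 120 with mitochondrial genes removed, 92 with the mitochondrial share as a covariate, 73 in a fit of all 18 libraries and 72 to 122 when 1 library was left out (72 without LKO 1 and 72 without WT 2). They were 29 without a filter, 51 with a mean of 5 TPM or more, where 64 of the 109 were tested, and 28 with the term for Xist or Y-linked transcripts. Estimated library weights, which did not converge and ran from 0.197 to 7.32, gave 3536 and are not relied on. The replicate numbers pair nothing: same-numbered LKO and WT libraries deviated with r of -0.174, 0.204 and -0.275; a replicate block gave 163, all 109 among them, and left the Ftcd and mitochondrial differences at -2.81 and 10.7. The count of genes whose difference changed with DEN, 0, was 2 without a filter, 4 with median-ratio scaling, 4 with quantile normalization, 2 with the mitochondrial covariate, 2 with the Xist or Y term, 0 to 12 when 1 library was left out (12 without DEN LKO nontumour 2) and 1 without the 3 libraries labelled WT with low Ftcd, an alternative chosen after seeing the data. Leaving out 1 library gave -4.36 to -1.97 for Ftcd and 6.575 to 16.03, the highest without the library labelled WT 3, for the mitochondrial share. The sign turned for Pparg (0.14 with median-ratio scaling, 0.069 with quantile normalization, 0.24 with the mitochondrial covariate, 0.15 with weights, and -0.73 to 0.25 when 1 library was left out, above 0 without LKO 2 and, at 0.0023, without WT 1), for Cyp2e1 and Glul with the mitochondrial covariate (0.52 and 0.20), and with the Xist or Y term for Glul (1.57), Fabp4 (-1.98), Hba-a1 (-0.26), Hba-a2 (-0.38), Cib3 (-2.18) and Xist (2.06). Relative medians of lists changed sign in 11 of 40 lists with the Xist or Y term, 7 with the mitochondrial covariate, 6 without a filter, 4 with weights, and 0 to 3 under each other alternative. The ATF4 and stress list turned above 0 under each scaling (0.05, 0.084 and 0.0029), acute-phase genes turned to -0.23 without LKO 2 and -0.21 without the library labelled WT 3, and p53 targets to -0.056 without a filter. The serine and glycine list turned to -0.033 without the library labelled WT 3, gluconeogenesis to 0.11 and NRF2 targets to 0.079 with the mitochondrial covariate, as did bile acid synthesis (0.13). The cause of these changes was not tested. TPM gives no depth, so whether a level near 0 is absence cannot be said.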
